A study of Rattus norvegicus with 4 samples.

Results

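The primary cilium is a microtubule-based projection that grows from a basal body, and genes that build it or carry cargo through it were described here in rat eye and retina. They were all genes whose symbol is Bbs, Ift, Cep, Nphp or Tctn with a number, or begins with Dync2 or Kif3, together with Rpgr, Rpgrip1, Rpgrip1l, Ttc8, Mkks, Mks1, Arl6, Arl13b, Ahi1, Lca5 and Tmem67. This gave 67 genes of the 14485 gene names with a value, and 0 of their rows had to be dropped for a missing value. The genes were chosen by name and not by their levels, though earlier results of these data were known at that point.

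RNA sequencing was done on wild-type Long Evans rats, a pigmented strain, and 2 groups were labelled, Eye and Retina, neither with any treatment. RNA of 5 rats was pooled for a library, and 2 technical replicates are listed for each tissue among the 4 samples. Both replicates of a tissue point to the same single column of values, and whether it joins both is unknown. Hence no spread between replicates, no test and no p-value can be given. No source used here gives age or sex, and the description field of every sample speaks of retina mRNA while title and tissue label set Eye apart; the libraries are called by their tissue label. In bulk tissue, fewer cells of a type and less RNA per cell cannot be told apart.

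Values are taken as RPKM, that is reads scaled by the length of the gene model and by the reads of the library, so levels can be compared between genes. The totals recovered from the values were 28071917 reads for eye and 51944762 for retina. The tissue labels were checked against marker genes: 5 of 7 rod markers and 4 of 5 cone markers were at least 2-fold lower in the eye library, and all 5 lens, 2 corneal epithelium, 3 skeletal muscle and 4 pigment cell markers were at least 2-fold higher there. The 18 lens genes with a value held 12.6% of the reads in eye and 0.141% in retina.

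The outer segment of a photoreceptor, which holds the visual pigment, is a modified primary cilium joined to the cell body by a connecting cilium that corresponds to the transition zone of other cilia. Intraflagellar transport moves cargo outward on IFT-B with kinesin-2 and back on IFT-A with dynein-2, and the BBSome, a coat of Bardet-Biedl syndrome proteins, carries membrane proteins along it. Inherited defects of these genes cause retinal degeneration, alone or with kidney, limb or brain disease.

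Promoter windows are shown first, because RFX transcription factors are known to bind a palindromic site, the X-box, upstream of many cilium genes, and because Rpgrip1 and Nphp4 had the largest differences toward retina. Sequences are from RefSeq on GRCr8, a newer build than the rn4 of the deposited values, and each is printed 5′ to 3′ on the gene's own strand, here always plus, up to the base before the annotated start. Capitals mark matches to GTNNCCNNNGNAAC, an X-box form searched on both strands, in which N is any base. The upstream windows of Rpgrip1 (chr15:27282748-27282997) and Nphp4 (chr5:168270823-168271072) are given whole, and those of Ahi1 (chr1:17581928-17581981), Mks1 (chr10:73153145-73153198) and Cep112 (chr10:93865515-93865568) with 20 bases on each side of the match.
Rpgrip1: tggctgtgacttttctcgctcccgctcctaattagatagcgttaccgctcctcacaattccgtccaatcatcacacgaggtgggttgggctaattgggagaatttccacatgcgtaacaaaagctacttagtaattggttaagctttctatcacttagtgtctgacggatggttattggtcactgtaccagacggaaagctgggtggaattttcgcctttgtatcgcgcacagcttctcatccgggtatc
Nphp4: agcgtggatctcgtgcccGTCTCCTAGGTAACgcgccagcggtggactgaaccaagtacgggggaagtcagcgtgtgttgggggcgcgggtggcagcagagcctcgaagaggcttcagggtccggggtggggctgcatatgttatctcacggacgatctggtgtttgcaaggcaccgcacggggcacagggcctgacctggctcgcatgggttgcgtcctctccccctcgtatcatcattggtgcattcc
Ahi1: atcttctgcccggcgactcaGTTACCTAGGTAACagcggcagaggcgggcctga
Mks1: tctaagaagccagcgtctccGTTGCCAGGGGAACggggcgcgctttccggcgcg
Cep112: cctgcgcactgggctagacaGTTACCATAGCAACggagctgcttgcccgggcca

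These 4 matches began 232 bases before the start in Nphp4, 83 in Ahi1, 56 in Mks1 and 164 in Cep112. Cep112 held a second match (GTCGCCATGGCAAC) and Arl6 one (GTTGCCAAGGGAAC) that ran up to or across the start. Promoter sequences of 300 bases, 250 before and 50 after a start, were matched for 56 of the 67 genes, with 60 promoters in all. The X-box form was in 5 of these 60 promoters (8.33%), against 2.06% of all 33469 promoters and 2.15% of the 10081 promoters of tested genes. The shorter form GTTGCC, an arm of the X-box that lies within some matches to the full form, was in 25 of 60 (41.7%), against 12.2% of all promoters and 12.2% of those of tested genes. Among them were promoters of Bbs1, Bbs2, Bbs5, Ift20, Ift27, Ift81, Ift88, Kif3a, Rpgr, Tctn1, Tctn2 and Tctn3, and of several Cep genes. In those of Bbs1, Bbs2, Ift20, Rpgr and Tctn1 every match lay after the start and not upstream of it. The site TAATCC, bound by the photoreceptor factor Crx, was in 6 of 60, against 7.17% of all promoters and 5.36% of those of tested genes. A match is a run of letters in these windows and was not measured as a bound site.

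The 25 tested genes with GTTGCC had a median log2 difference (eye against retina) of -0.46, and the 28 without it -0.36. Called lower in eye, as defined next, were 3 of the former and 4 of the latter. With the full X-box form the median was -0.80 over 5 genes, of which 1 was called lower, and without it -0.38 over 48, of which 6 were. With the Crx site it was -0.15 over 5 genes, of which 0 were called lower, and without it -0.53 over 48, of which 7 were. None of these differences between genes with and without a motif was tested.

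A gene was tested if its value was at least 1 in either library, which 64 of the 67 genes and 13259 genes in all passed, and it was called at a 2-fold difference on the scale log2((eye + 0.1) / (retina + 0.1)). Of the 64, 7 were called lower in the eye library (10.9%), against 7.95% of all tested genes, a share near the background. They were Rpgrip1, Nphp4, Cep250, Cep164, Cep85, Ift122 and Bbs1. None (0 of 64) was called higher in eye, against 17.8% of all tested genes. The values lay between 1.05 and 55.8 in eye and between 1.12 and 69.2 in retina, and the highest of them exceeded 91.9% of tested genes in eye and 94.3% in retina. At a fold of 4 only Rpgrip1 was called lower, where 0.0905% of all tested genes were. Its log2 difference of -2.05 became -1.86 when the totals excluded lens genes and -1.95 with 1 added in place of 0.1. Both fall short of 4-fold. Taking lens genes out of the totals left 6 of 64 called lower (9.38%, against 4.22% of all tested genes), without Bbs1. Giving both libraries the same summed value made it 31 of 64 (48.4%, against 31.9%), so the share stood further above the background under these scalings than as deposited.

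As a set, the cilium genes lay toward retina by a modest amount. Their median log2 difference was -0.36, a 1.29-fold higher level in retina, and -0.35 once the median of all tested genes (-0.01) was taken off. The value was higher in retina for 51 of 64 genes, against 50.7% of all tested genes. This count was 38 when the totals excluded lens genes and 63 with equal summed values. These scalings shift the log2 difference of every gene alike, by 0.19 and by -0.64. The share of all tested genes thus moves as well and was not counted under them. An exact 95% interval of the ratio, which covers counting error only and compares 2 libraries, lay wholly on the side of retina for 39 genes and of eye for 9 genes, and held 1 for 16 genes. Over all genes with recovered reads, 42.1% lay on the side of retina and 41.5% on that of eye. In the retina library the median level of the 64 genes was 13.8, above the 9.63 of all tested genes, while in eye it was 9.38 against 10.1.

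**Figure D1:**
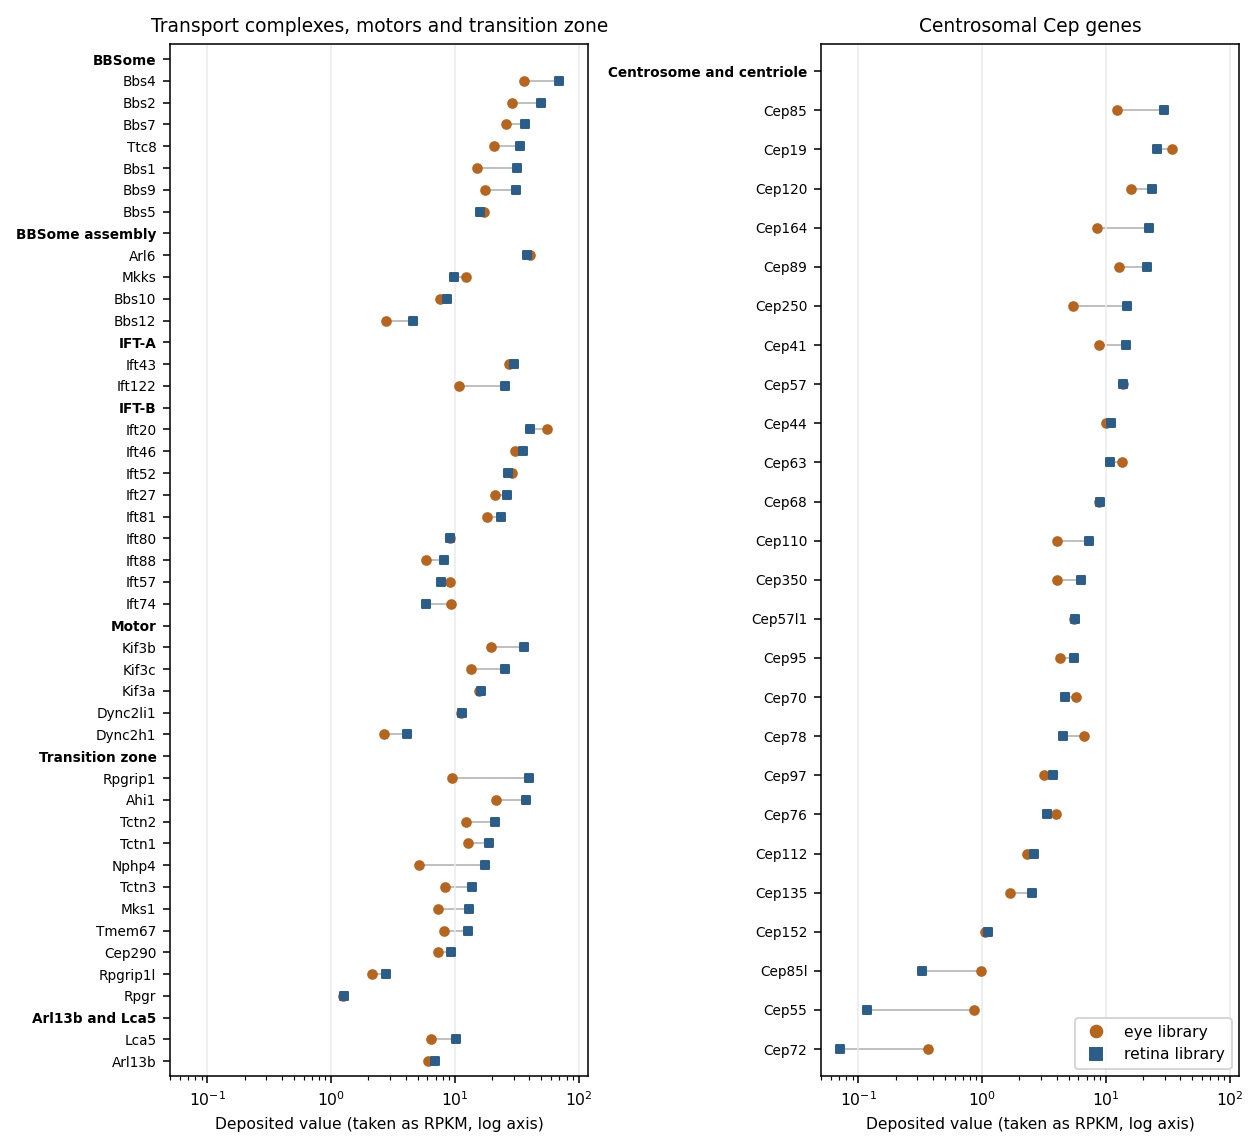
Deposited values of the cilium genes reported here in the eye library (circles) and the retina library (squares) on a log axis, by role, with genes ordered by retina level. Rpgrip1 (9.51 and 39.7) and Nphp4 (5.18 and 17.7) show the widest gaps toward retina, and Cep55 and Cep72 lie below 1 in both libraries with the higher value in eye.

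Transition zone genes encode the gate at the base of the cilium. All 13 had the higher value in retina (when the totals excluded lens genes, 3 of them, among them Rpgr, changed side). Of the 13, 2 were called lower in eye (15.4%, against 7.95% of all tested genes), and the median log2 difference was -0.63. Rpgrip1, which anchors the Rpgr protein in the connecting cilium of photoreceptors, had a value of 9.51 in eye and of 39.7 in retina, a 4.18-fold lower level in eye (interval 3.79 to 4.61). Only 0.0754% of tested genes had a lower log2 difference. Nphp4, a nephrocystin of the transition zone, had a value of 5.18 in eye and of 17.7 in retina, a 3.42-fold lower level in eye (interval 2.99 to 3.93). Nphp4 overlaps Kcnab2 on the opposite strand (21.1 in eye and 43.8 in retina), and no source used here says whether counting used strand, so the part of Kcnab2 reads in it was not tested.

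Rpgr and Rpgrip1l, related to Rpgrip1 by protein binding and by paralogy, differed less. Rpgr, mutated in X-linked retinitis pigmentosa, had a value of 1.24 in eye and of 1.27 in retina, with an interval of the ratio of retina to eye from 0.791 to 1.33. Rpgrip1l, the broadly expressed paralog of Rpgrip1, was at 2.15 and 2.78, a ratio of 1.29 (1.15 to 1.45). The intervals of Rpgr and Rpgrip1l do not reach that of Rpgrip1.

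The Joubert and Meckel syndrome genes Ahi1, Mks1, Tmem67 and the tectonics lay between these. Ahi1, the Jouberin gene, had a value of 21.6 in eye and of 37.7 in retina, a ratio of 1.74. Mks1 was at 7.38 and 13.0 (1.76), and Tmem67, the meckelin gene, at 8.15 and 12.7 (1.55). The tectonic genes were close to each other: Tctn1 had a ratio of 1.5 (12.7 in eye and 19.0 in retina), Tctn2 of 1.72 (12.3 and 21.1) and Tctn3 of 1.64 (8.40 and 13.7). None of them was called. Cep290, a major gene of Leber congenital amaurosis whose protein is a linker between microtubules and membrane, was at 7.28 and 9.24, a ratio of only 1.27 (1.20 to 1.34).

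Most BBSome subunits, which join in one particle, lay toward retina. The median log2 difference of the 7 subunits was -0.79, and 1 was called lower in eye (14.3%, against 7.95% of all tested genes). The 6 with the higher value in retina kept that side under each scaling tried. Bbs4, a subunit of the coat, was the most abundant of the 67 genes in retina, at 36.2 in eye and 69.2 in retina. Its ratio of 1.91 fell just short of the threshold. Bbs1, the subunit that binds the GTPase Arl6, was at 15.2 and 32.1, a 2.11-fold lower level in eye (interval 1.99 to 2.23), just past it. Bbs2 was at 28.9 and 49.9 (ratio 1.73), Bbs9 at 17.6 and 31.1 (1.77), Ttc8 at 20.9 and 33.5 (1.60) and Bbs7 at 25.8 and 36.7 (1.42). Bbs5, which binds membrane lipids, was the exception, at 17.3 in eye and 15.9 in retina, with an interval of the ratio of retina to eye from 0.834 to 1.01 that lies below those of the other 6 subunits. Its sign turned with equal summed values. Retina levels of the subunits thus ran from 15.9 to 69.2.

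The genes for assembly and recruitment of the BBSome showed no common side. Mkks, a chaperonin-like protein, had a value of 12.4 in eye and of 9.92 in retina, 1.25-fold higher in eye (1.16 to 1.36), which turned with equal summed values. Bbs10 was at 7.64 and 8.69 and Bbs12 at 2.80 and 4.63, both chaperonin-like as well. Arl6, the GTPase that brings the BBSome to membranes, was at 40.6 and 38.6, among the highest levels of the set, with an interval from 0.883 to 1.02 for retina against eye. The median of these 4 genes was -0.05, and 0 were called, against 7.95% lower and 17.8% higher of all tested genes.

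**Figure D2:**
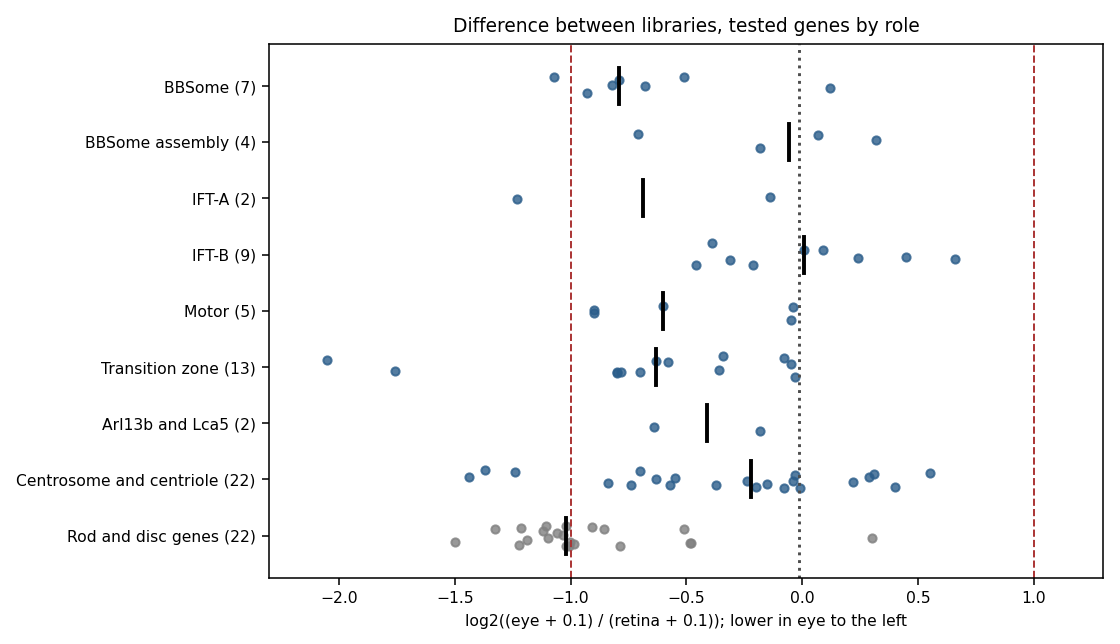
Log2 difference of each tested cilium gene by role, with the number of genes in parentheses, and of rod and disc genes for comparison; black bars are medians, the dotted line is the median of all tested genes (-0.01) and dashed lines are 2-fold. The medians run from -0.79 for the BBSome to 0.01 for IFT-B, and rod and disc genes centre on -1.02.

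Intraflagellar transport genes split by subunit. Only 2 IFT-A genes were among those chosen by name. Ift122, a core subunit of the retrograde particle, had a value of 10.8 in eye and of 25.5 in retina, a 2.36-fold lower level in eye (interval 2.22 to 2.51). Ift43, a small peripheral subunit, was at 27.5 and 30.3, a ratio of 1.10 (1.00 to 1.21). The intervals of these subunits lie far apart, and Ift43 changed side when the totals excluded lens genes.

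The 9 IFT-B genes had a median log2 difference of 0.01, and 4 had the higher value in retina against 5 in eye. Of these, 0 were called, against 7.95% lower and 17.8% higher of all tested genes. Ift20, which also sits at the Golgi and takes part in sending cargo to the cilium, had the highest eye level of the set, at 55.8 in eye and 40.9 in retina. It was 1.36-fold higher in eye (1.25 to 1.49). Ift74 was at 9.25 and 5.81, 1.59-fold higher in eye (1.41 to 1.80), and it overlaps Lrrc19, while its partner in tubulin binding, Ift81, was at 18.1 and 23.8, 1.31-fold higher in retina (1.23 to 1.40). Both intervals exclude 1, on opposite sides, although the proteins act as a pair. The sign of Ift20 turned with equal summed values, and under that scaling the log2 difference of Ift74 went from 0.66 to 0.03, so that its difference toward eye was no longer seen.

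Ift88, the subunit whose mouse mutant has defective outer segments, was at 5.86 and 8.11 (ratio 1.38, interval 1.25 to 1.54). Ift46 was at 30.7 and 35.5 (1.16), Ift27, a small GTPase, at 21.3 and 26.4 (1.24), Ift52 at 28.8 and 27.1 (0.942), Ift57 at 9.16 and 7.73 (0.844) and Ift80 at 9.15 and 9.09 (0.993). Ift46 overlaps Arcn1 on the opposite strand (53.4 in eye and 41.3 in retina). Ift88, Ift74, Ift57 and Ift80 thus stood at 9.25 or less in both libraries, and Ift20, Ift46 and Ift52 at 27.1 or more. Subunits that other symbols name were taken from a separate list of IFT, BBSome and motor genes. Of its 26 genes, 20 were tested and 0 were called in either direction, against 7.95% lower and 17.8% higher of all tested genes. In that list the value was higher in retina for 13 genes and in eye for 7, and the median log2 difference was -0.16. By the mean of both libraries, its most abundant genes were light chains that cytoplasmic dynein shares, Dynlrb1 (138 in eye and 102 in retina) and Dynll2 (97.4 and 114).

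Motor genes differed within the kinesin. Kif3a and Kif3b encode the usual pair of kinesin-2 motor subunits. Kif3a had a value of 15.7 in eye and of 16.2 in retina, with a ratio of 1.03 (0.956 to 1.12), whereas Kif3b was at 19.5 and 36.5, a ratio of 1.87 (1.80 to 1.95). Kif3c, an alternative partner of Kif3a that is known from neurons, was at 13.5 and 25.4 (1.88, interval 1.76 to 2.00), but it overlaps Asxl2 on the same strand (3.97 and 5.45). In the eye library the levels of Kif3a and Kif3b differed by less than in retina. The dynein-2 heavy chain Dync2h1 was at 2.68 and 4.12 (1.54, interval 1.43 to 1.66) and its light intermediate chain Dync2li1 at 11.2 and 11.5 (1.03, interval 0.927 to 1.15). None of the 5 was called, against 7.95% lower and 17.8% higher of all tested genes. Kif3a and Dync2li1 changed side when the totals excluded lens genes.

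Arl13b, a GTPase of the ciliary membrane, had a value of 6.10 in eye and of 6.92 in retina, and the interval of its ratio (0.910 to 1.42) held 1. Lca5 encodes lebercilin, which binds IFT proteins and is mutated in a form of Leber congenital amaurosis. It was at 6.48 and 10.2, a ratio of 1.57 (1.43 to 1.73), and was not called.

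Centrosomal Cep genes, Cep290 apart, were the group with most genes and lay on both sides. Of 25 genes, 22 were tested and 3 were called lower in eye (13.6%, against 7.95% of all tested genes). Their median log2 difference was -0.22. Cep250, which encodes the linker protein that holds the centrioles of a pair together, had a value of 5.41 in eye and of 14.8 in retina, a 2.75-fold lower level in eye (interval 2.56 to 2.95). It overlaps a coding gene on the opposite strand. Cep164, a distal appendage protein needed to dock the basal body at the membrane, was at 8.54 and 22.3, a 2.61-fold lower level in eye (2.46 to 2.77). Cep85, a centrosomal regulator of the Nek2 kinase, was at 12.4 and 29.4, 2.37-fold lower (2.24 to 2.51).

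After these, Cep110, the centriolin gene, had a ratio of 1.81 (4.06 in eye and 7.33 in retina) and Cep89, another distal appendage gene, one of 1.68 (12.8 and 21.4). At the other end, Cep78, mutated in cone-rod dystrophy with hearing loss, was at 6.67 and 4.53, 1.47-fold higher in eye (1.29 to 1.67). Cep19 was at 34.4 and 26.1, 1.32-fold higher in eye (1.23 to 1.41), with Pigx overlapping it on the opposite strand (24.3 and 15.1). Cep63 (13.5 and 10.9, overlapping Anapc13), Cep70 (5.76 and 4.68) and Cep76 (3.94 and 3.36) also had the higher value in eye, by 1.24-fold, 1.23-fold and 1.17-fold. All 5 changed side with equal summed values. The remaining tested Cep genes lay between these, from a ratio of 1.01 for Cep57l1 to 1.64 for Cep41, a Joubert syndrome gene.

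The 3 genes below the minimum were all Cep genes, and all had the higher value in eye. Cep55, a protein of the midbody that acts in the last step of cell division, had a value of 0.856 in eye and of 0.118 in retina, from as few as 59 and 15 reads, a 7.28-fold difference (interval 4.08 to 13.8). Cep72, a protein of centriolar satellites, was at 0.364 and 0.0707, from as few as 25 and 9 reads, a 5.14-fold difference (2.32 to 12.5). Cep85l was at 0.980 and 0.330, with too few decimals to recover reads, and it overlaps Pln on the opposite strand (0.974 and 0.0554). With no minimum these 3 were called higher in eye, of 67 genes, against 18.2% of all genes under that rule.

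The cilium genes were set beside 22 tested genes of rods and their discs, whose 7 markers summed to 17634 in eye and 36524 in retina. Those had a median log2 difference of -1.02, a 2.03-fold higher level in retina. Of the 22, 14 were called lower (63.6%, against 7.95% of all tested genes). Of the 64 cilium genes, 7 lay below that median (10.9%), against 7.41% of all tested genes. That median lies almost at the 2-fold threshold, so this count nearly repeats the calls, with the same 7 genes. Rpgrip1 and Nphp4 lay below the lowest of the 22 listed genes, Gucy2e (-1.5). The cilium genes as a set were thus closer to the median of all genes than to rod genes. Of 9 tested Usher syndrome genes, some of which act at the base of the photoreceptor cilium, 5 were lower and 2 higher, with a median of -1.17. These shares were 55.6% and 22.2%, against 7.95% and 17.8% of all tested genes.

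**Figure D3:**
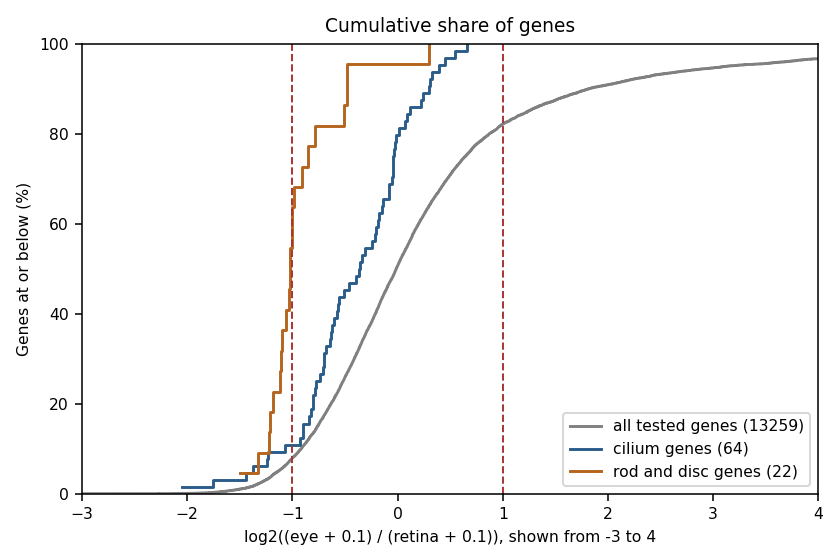
Cumulative share of genes by log2 difference between the libraries, for all tested genes, the 64 cilium genes and 22 rod and disc genes; dashed lines are 2-fold and the axis is shown from -3 to 4. The curve of cilium genes starts at -2.05 and ends at 0.66, short of the 2-fold line on the side of eye that 17.8% of all genes pass.

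Other genes of the cilium were taken from lists. Of 11 tested genes of the photoreceptor cilium, 4 were called lower in eye (36.4%, against 7.95% of all tested genes). They were Tulp1 (280 in eye and 736 in retina), Cdhr1 (186 and 467), Mak (25.4 and 57.6) and Fam161a (14.9 and 32). The median of that list was -0.51, and Tulp1 and Cdhr1 had its highest levels. It shares Cdhr1, Prom1 and Rp1 with the rod and disc genes above, so Cdhr1 is counted as lower in both lists. Of 17 further transition zone genes, 0 were called, against 7.95% lower and 17.8% higher of all tested genes. Their median was -0.12, and the highest were Atxn10 (75.9 and 75.1) and Tmem138 (25.7 and 43.5). Of 13 genes of lipidated cargo and vesicle transport to the cilium, 0 were lower and 1 was higher (7.69%), against 7.95% and 17.8% of all tested genes. The higher one was Rab11a (54.1 and 20.4), a GTPase of recycling endosomes in all cells. Unc119 (888 and 1673) and Arl3 (196 and 194) were the most abundant of the 13.

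Of 27 tested ciliogenesis and basal body genes, 1 was lower (3.70%) and 2 were higher (7.41%), with a median of -0.22. Of all tested genes, 7.95% were lower and 17.8% higher. The lower one was Rfx1, a factor that binds the X-box, at 7.11 in eye and 21.2 in retina, a 2.98-fold lower level in eye (interval 2.68 to 3.32). Other RFX genes were not called: Rfx2 was at 2.31 and 1.39, Rfx3 at 2.89 and 4.91, Rfx5 at 8.83 and 11.7 and Rfx7 at 5.64 and 6.90. The higher ones were Cetn3 (30.5 and 12.9), a centrin, and Mapre1 (39.5 and 17.7), a microtubule end-binding protein. Cetn2, another centrin, was at 50.1 and 34.9 and had the highest mean of the list.

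Markers of motile cilia, as on airway epithelium, were checked as another source of cilium transcripts, whose part was not tested. Values were found for 9 of 15 marker genes, and 4 reached the minimum of 1. Zmynd10, of dynein arm assembly, had a value of 11.2 in eye and of 21.6 in retina, Ccdc39 at 2.51 and 3.0 and Dnai2 at 0.566 and 1.06, none of them called. Hydin was called higher, at 2.69 and 0.406, the only 1 of the 4 (25.0%, against 17.8% of all tested genes). The axonemal genes Dnai1 (0.252 and 0.464), Rsph1 (0.570 and 0.558), Tekt1 (0.827 and 0.866), Ccdc40 (0.239 and 0.428) and Ccdc114 (0.426 and 0.453) were below 1 in both libraries.

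Gene model length moved with the difference between the libraries, in all genes as well as in the cilium genes. Length is known here only as the smallest that gives whole reads. In 5 length classes of nearly equal gene number, the median log2 difference of all tested genes went from 0.27 in the shortest (202 to 1026 bases) to 0.09, 0.00, -0.13 and -0.24 in the longest (3340 to 27502). For cilium genes it was 0.00 over 8 genes, -0.15 over 7, -0.04 over 9, -0.39 over 23 and -0.63 over 17. Of the 7 called genes, 5 were in the longest class, where 10.2% of all genes were called lower. By smallest length Nphp4 and Rpgrip1 were in the middle class, but true lengths may be a multiple, so their class is uncertain. Across the 64 genes, which share both libraries, Pearson's r between log2 difference and log10 length was -0.37 and Spearman's rho -0.45, and across all 12865 genes with a length they were -0.16 and -0.18. Taken against genes of the same class, the median of the cilium genes was -0.33, close to the -0.35 against all genes. The part of length in the single differences was not tested.

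**Figure D4:**
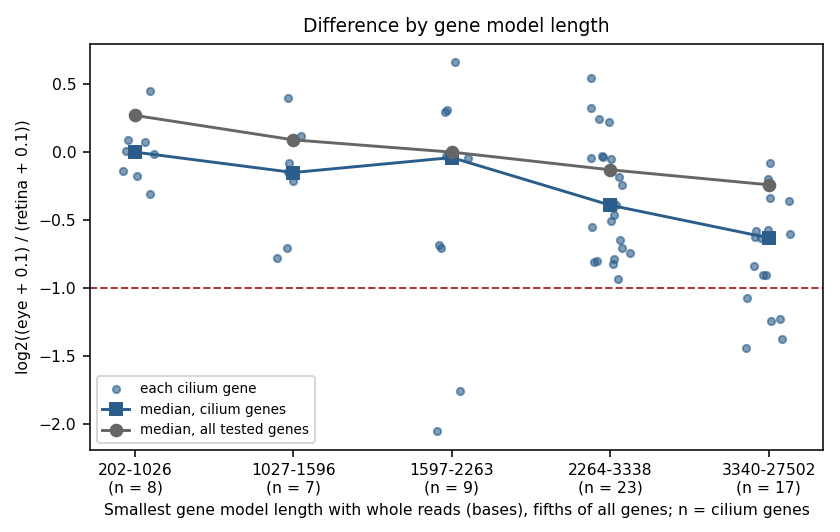
Log2 difference by 5 classes of the smallest gene model length with whole reads; small points are cilium genes (horizontal scatter is for visibility), squares their medians and circles the medians of all tested genes, and the dashed line is 2-fold lower in eye. Both medians are highest in the shortest class (0.00 and 0.27) and lowest in the longest (-0.63 and -0.24).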

How the data were processed

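Libraries of pooled rat RNA were processed with GSNAP and HTSeq on genome build rn4, per the submitters' processing notes; no source used here gives versions, annotation, settings or strand use. The deposited values are taken as RPKM, inferred from the values, since no label or header names a unit. Each file had 14533 rows, 7 of them ND; of 41 repeated names the row with more decimals was kept. Samples were grouped by title.

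Reads were recovered as the smallest whole numbers that give both values of a gene with a common model length from 200 to 30000 bases, which worked for 13980 of 13980 genes searched; the 401 names with at most 5 decimals were not searched. The eye total came from 135 of 2081 short genes. True reads may be a multiple, so for counting error alone the intervals (Clopper-Pearson, 95%) are if anything too wide. They leave out any variation between replicates, pools or library preparations, and may be far too narrow for a difference between tissues. The recovery was tested on simulated data of 3000 genes, with both totals found.

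Differences are log2((eye + 0.1) / (retina + 0.1)), and adding 0.1 understates those of low genes; printed ratios are of the values as deposited. Values are printed for called genes, for transport, motor and transition zone genes, for the most abundant genes and for the 5 Cep genes at each end, except that some transition zone genes are not reported here by name and are left out of the plot of levels; from other lists, for called genes and the 2 most abundant, and other RFX and motile cilium genes were added after their values were seen. The genes and lists were chosen with earlier results of these data known. Symbols were matched to a RefSeq table of GRCr8 (66 by symbol, 1 by an older symbol) for overlaps and promoters only. Of the 67 genes, 14 overlap a coding gene, and not all are marked where their values are printed. Among those left unmarked are Mks1 (Epx), Tctn1 (Hvcn1), Cep290 (Rlig1) and Arl13b (Stx19). Alternatives varied the added value, minimum, fold, scaling and gene set. Python 3.11.15, numpy 2.4.6, pandas 2.3.3, scipy 1.17.1 and matplotlib 3.10.9 were used.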

Additional observations from a re-analysis of the deposited data

How the results depend on the processing

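The count of cilium genes lower in eye (7 as reported) was 31 of 64 with equal summed values (48.4%, against 31.9% of all genes). It was 1 (Rpgrip1) at a fold of 4, where 0.0905% of all genes were called. Without genes named Cep it was 4 of 41 (9.76%, against 7.95% of all tested genes), a share near the background. When the totals excluded lens genes it was 6 (9.38%, against 4.22%), and Bbs1 was not called. Without genes that overlap a coding gene it was 5 of 51, to be set against the same 7.95%, an alternative chosen after the data were seen. The count higher in eye (0 as reported) was 3 of 67 with no minimum value, against 18.2% of all genes. Under the other alternatives the same 7 and 0 were found, while the shares of all genes moved. With 1 added in place of 0.1, the 7 of 64 (10.9%) stood against 4.94% of all tested genes, and 14.4% were higher. With 0.01 added these shares of all tested genes were 8.37% and 18.3%, and the other such alternatives lay between. The median relative to all tested genes (-0.35) lay between -0.45 and -0.30 under every alternative run, the comparison within classes of length, also chosen after the data were seen, among them. Scaling moved the log2 difference by 0.19 without lens genes and by -0.64 with equal summed values, which turned the side of 13 and 12 genes, none of them called; the median ratio turned that of Cep57l1 and the trimmed mean that of 0. Depth limits the low genes most. In eye, 4 tested genes had fewer than 100 recovered reads, but these are smallest numbers and true reads may be more. Among the 4 was Ift80, at 9.15 in eye with a smallest length of 288 bases. No paired analysis was possible because each tissue has 1 column of values.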
